A study of Mus musculus with 12 samples.

Results

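Detoxification enzyme families were followed across 4 genotypes of mouse pancreatic tumour cells. The families were the glutathione S-transferases (Gst, cytosolic and mitochondrial), the microsomal glutathione S-transferases (Mgst), the glutathione peroxidases (Gpx), the UDP-glucuronosyltransferases (Ugt), the aldehyde dehydrogenases (Aldh) and the Akr1 branch of the aldo-keto reductases. Members were matched by symbol alone, but the families were chosen with earlier results of these data known. In the expression table, 92 of the 24493 gene symbols matched. Of these, 63 reached 1 TPM (a length-corrected share of a library's transcripts) in at least 3 libraries and were tested. The 29 others comprised 10 listed at 0 in all 12 libraries, 18 below 1 TPM in every library, and Gstt2, which reached 1 TPM in Smad4KO libraries alone. Gst had 22 members (19 tested), Mgst 3 (3 tested), Gpx 9 (6 tested, with the pseudogene Gpx2-ps1 among the untested), Ugt 21 (7 tested), Aldh 21 (17 tested) and Akr1 16 (11 tested).

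The study compared WT cells with cells labelled EgfrKO, Klf5KO and Smad4KO, with 3 RNA-sequencing libraries for each genotype. All were 6649c2 pancreatic tumour cells of the C57BL/6 strain that had been implanted under the skin and then sorted out of the resulting tumours. EgfrKO lacks the epidermal growth factor receptor, Klf5KO a zinc-finger transcription factor of epithelia, and Smad4KO a transducer through which TGF-beta family signals reach the nucleus, as named. How the genes were disrupted, whether a knockout was 1 clone or a pool, the age and sex of the hosts, the sorting gate and whether libraries came from separate animals are not given in the labels. The p-values therefore set differences of group means only against the spread of these libraries, and that spread may be technical.

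Cells dispose of foreign and reactive compounds in stages. Oxidoreductases such as the Aldh and Akr1 enzymes act on aldehydes and ketones, including the aldehydes that lipid peroxidation releases. Gst and Mgst enzymes join glutathione to electrophiles, Gpx enzymes use glutathione to reduce peroxides, and Ugt enzymes attach glucuronic acid, which makes products soluble and ready for export. Several of these genes are known targets of the transcription factor Nrf2, which binds antioxidant response elements.

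The libraries bore their labels in part. Egfr was at 12.3 to 14.0 TPM in WT and 3.77 to 5.16 TPM in EgfrKO, without overlap. It was also below every WT library in Klf5KO (mean 6.93 TPM) and Smad4KO (mean 7.95 TPM). A lower Egfr level was therefore not particular to EgfrKO, although the EgfrKO libraries were the lowest, just under the lowest Klf5KO library (5.45 TPM). Smad4 was at 70.9 to 79.8 TPM in WT and 28.9 to 33.4 TPM in Smad4KO, without overlap. Klf5 was at 97.1 to 130.3 TPM in WT and 87.8 to 100.5 TPM in the libraries labelled Klf5KO, where the ranges overlapped, so its TPM does not check that label. Each library held 12592 to 13141 genes at 1 TPM or more, and the correlation of log2 values was 0.98 to 0.988 within genotypes and 0.917 to 0.966 between them. Epithelial keratins and other markers of pancreatic epithelial tumour cells (10 of 10 in the table, none at 0 in a group) summed to 5898 to 6382 TPM in WT, 8686 to 9168 in EgfrKO, 4849 to 5383 in Klf5KO and 10550 to 11428 in Smad4KO. Single markers on that list went different ways. In the same order of genotypes, Epcam, the epithelial adhesion molecule, averaged 13.5, 1.30, 0.54 and 39.5 TPM. Cdh1 averaged 165.8, 267.5, 242.9 and 351.1 TPM, and Sox9 115.7, 70.0, 102.1 and 58.4 TPM. Because these are bulk samples, fewer cells of a type and less RNA per cell cannot be told apart. Because TPM values hold no read numbers, depth is unknown and a value of 0 is described only as listed at 0.

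Smad4KO cells carried the most detoxification transcripts. The 92 members together took 0.872% to 0.894% of all TPM in Smad4KO, against 0.489% to 0.527% in WT, 0.564% to 0.591% in EgfrKO and 0.491% to 0.52% in Klf5KO. In TPM the sums were 8940, 8715 and 8846 in the Smad4KO libraries and 5262, 5270 and 4886 in WT, so the groups did not overlap. EgfrKO sums, 5639 to 5906, also lay above WT, and Klf5KO sums, 4912 to 5200, overlapped with WT. By mean TPM over the 12 libraries the leading members were Gstp1 (791), Akr1a1 (663), Gsto1 (620) and Gpx1 (527). In Smad4KO the leading member was Gsta4, at a mean of 1209 TPM.

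Gene-wise tests used limma on log2(TPM + 1), with p-values adjusted over all 13662 tested genes and a threshold of 0.05. A log2 difference is given on that scale, which understates the change of low genes, with its standard error (SE), and ratios are of mean TPM. In Smad4KO against WT, 47 of 63 tested members were higher (74.6%, against 32.2% of all genes tested) and 6 were lower (9.52%, against 17.4%), with a median log2 difference of 0.75 beside 0.10 over all genes. In EgfrKO 27 members were higher (42.9%, against 31.3%) and 13 lower (20.6%, against 12%), with a median of 0.25 beside 0.14. In Klf5KO 24 were higher (38.1%, against 55.2%) and 18 lower (28.6%, against 11.1%), with a median of 0.12 beside 0.31. The EgfrKO share of higher members was thus nearer to that of all genes than the Smad4KO share was, and in Klf5KO members were called higher less often and lower more often than genes at large. The 3 comparisons share the WT libraries. Counted by libraries instead, 32 members had every EgfrKO library above every WT library and 13 had every one below (40.1% and 15.9% of all genes), against 22 and 19 in Klf5KO (57.1% and 11.9%) and 48 and 6 in Smad4KO (38.3% and 20.8%). Of 9 tested epithelial markers, 8 were higher and 1 lower in Smad4KO, 5 and 2 in EgfrKO, and 1 and 7 in Klf5KO, and the part of epithelial content in the member counts was not tested. Without WT replicate 2, the 6 members lower in Smad4KO became 3.

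The all-gene median above 0 moves these splits. After median-of-ratios scaling, which brings the all-gene medians to 0, -0.01 and 0, 41 members were higher and 8 lower in Smad4KO (25.1% and 24.7% of all genes), 22 higher and 15 lower in EgfrKO (18% and 22.2%), and 9 higher and 28 lower in Klf5KO (24.6% and 27.5%). The member medians were then 0.65, 0.12 and -0.18. Small Klf5KO differences therefore depend on the scaling. Abundant members that did not pass in Klf5KO were lower after it: Gstp1 (-0.38, adjusted p = 0.0016), Gsto1 (-0.47, 0.000147), Gstm1 (-0.58, 0.000551), Mgst1 (-0.24, 0.00585), Gpx1 (-0.27, 0.00584) and Akr1a1 (-0.29, 0.000465).

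**Figure D1:**
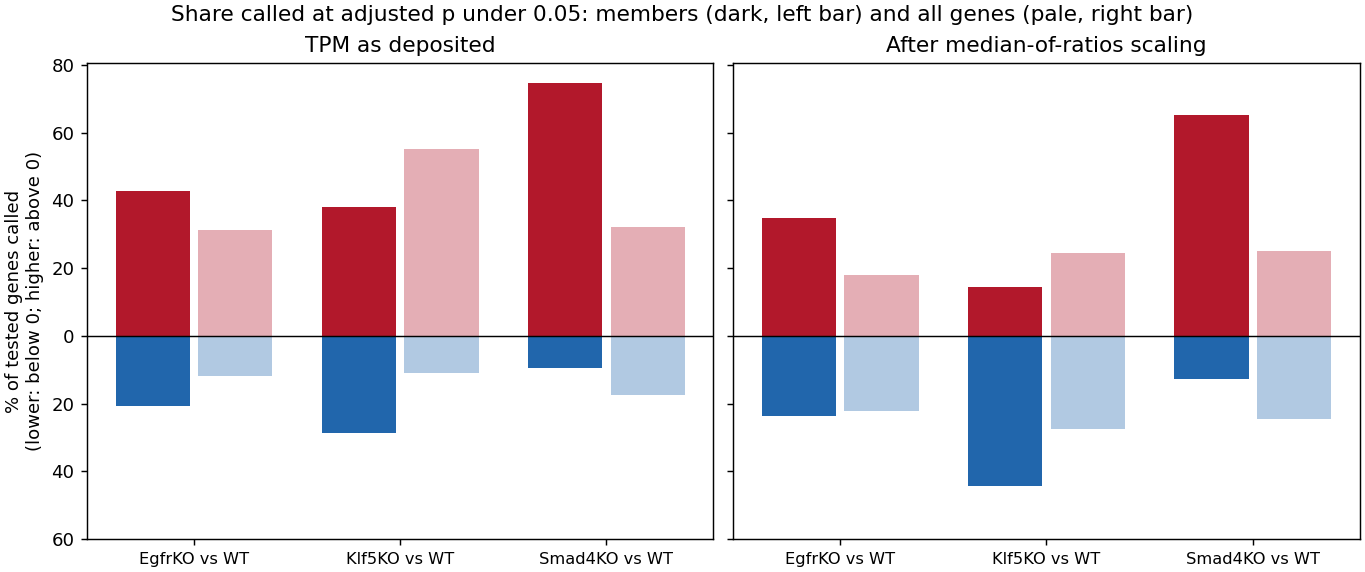
Percent of genes called higher (above 0, red) or lower (below 0, blue) than WT at an adjusted p under 0.05, for the 63 tested members (dark left bars) and all 13662 tested genes (pale right bars), from TPM as deposited and after median-of-ratios scaling. In Smad4KO 74.6% of members were higher against 32.2% of all genes; in Klf5KO the red member bar is shorter than the all-gene bar in both panels.

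**Figure D2:**
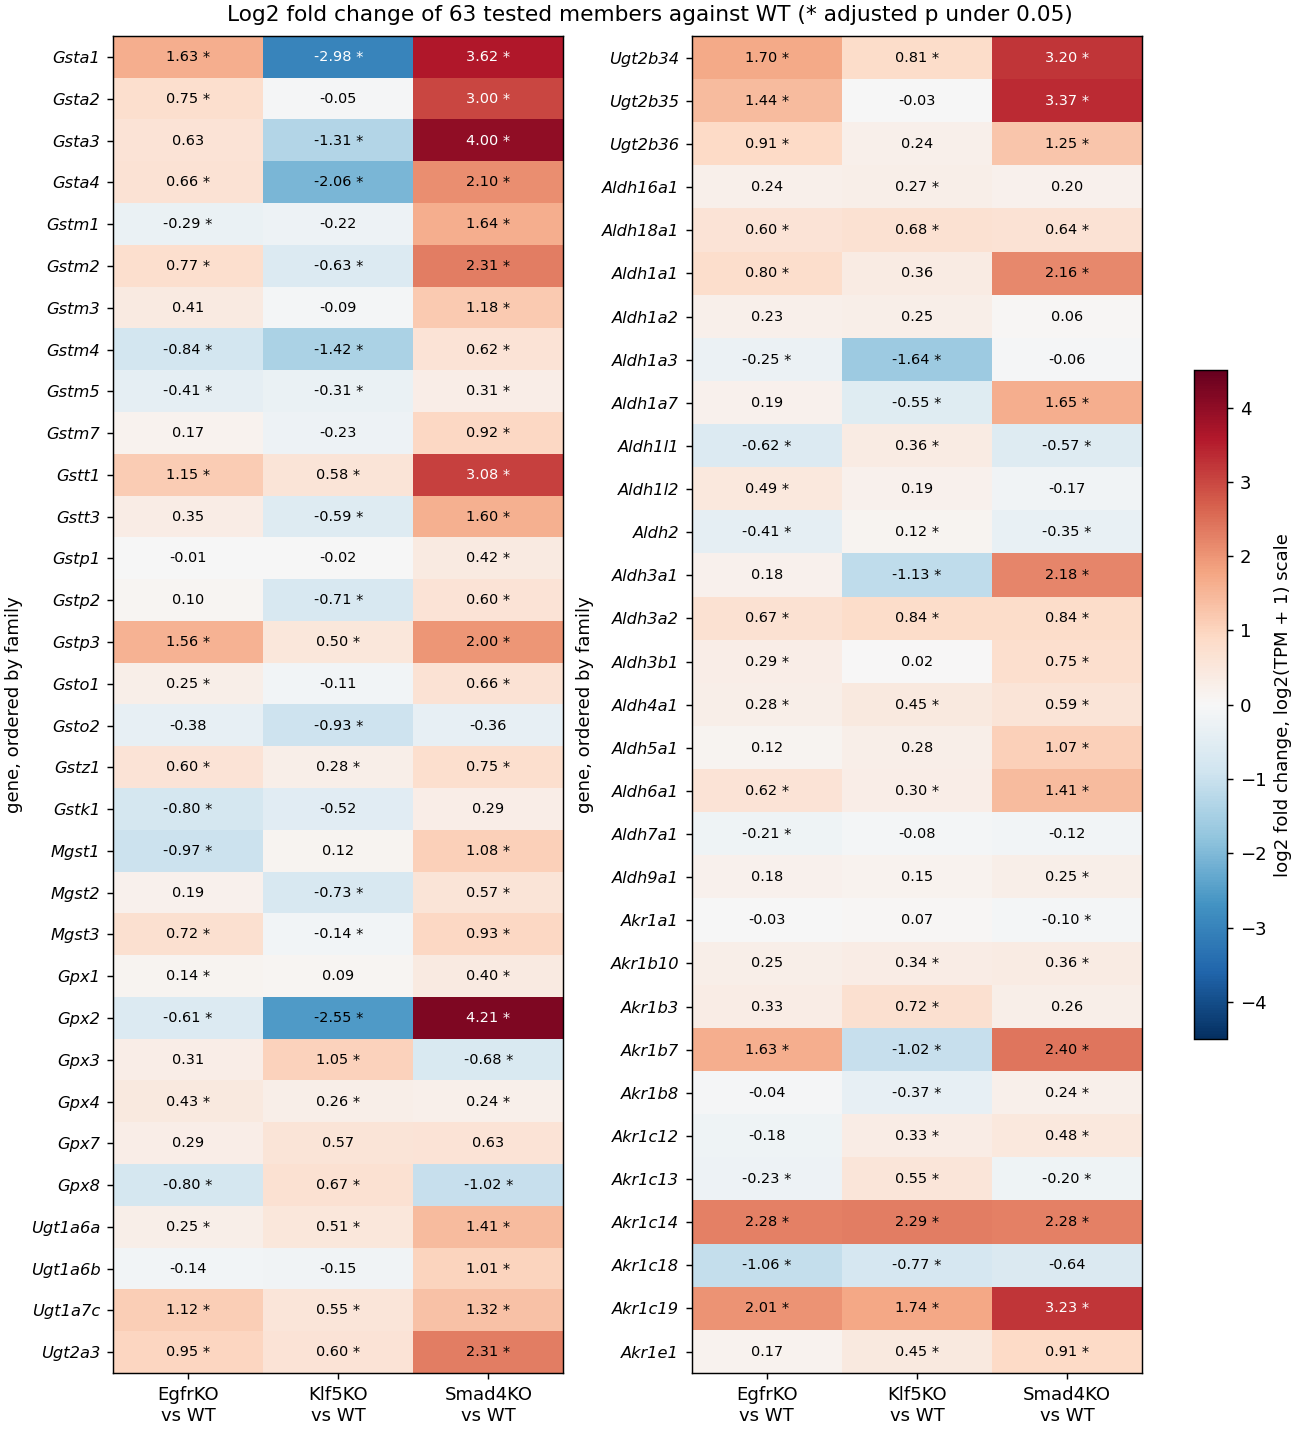
Log2 difference from WT on the log2(TPM + 1) scale for the 63 tested members (rows, by family) in EgfrKO, Klf5KO and Smad4KO (columns), with an asterisk for an adjusted p under 0.05. The Smad4KO column is red in all Mgst and Ugt rows and in the Gst rows other than Gsto2 (-0.36), the Klf5KO column is bluest at Gsta1 (-2.98), Gpx2 (-2.55) and Gsta4 (-2.06), and Akr1c14 is at 2.28, 2.29 and 2.28 in the 3 columns.

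The alpha class of Gst, whose enzymes conjugate glutathione to bulky electrophiles and to products of lipid peroxidation, spanned the widest range. All 4 tested alpha members were higher in Smad4KO (32.2% of all genes), with a median log2 difference of 3.31. In EgfrKO 3 of 4 were higher (31.3% of all genes), with a median of 0.70. In Klf5KO 3 of 4 alpha members were lower (11.1% of all genes), with a median of -1.68. Their summed TPM was 257 to 371 in WT, 522 to 559 in EgfrKO, 51.3 to 91.7 in Klf5KO and 1634 to 1713 in Smad4KO, with no overlap between any groups. Gsta1, Gsta2 and Gsta4 lie side by side on chromosome 9 of mouse (GRCm38.p6, positions 78191966 to 78347192), whereas Gsta3 lies on chromosome 1 at 21240565 to 21265575.

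The windows upstream of Gsta1 and Gsta2, read from RefSeq on GRCm38.p6, are printed because these neighbours on opposite strands both rose in Smad4KO. They are Gsta1 chr9:78230506-78230624 on the plus strand and Gsta2 chr9:78347193-78347311 on the minus strand, 5′ to 3′, with the longest run of identical bases (29) in capitals.
Gsta1: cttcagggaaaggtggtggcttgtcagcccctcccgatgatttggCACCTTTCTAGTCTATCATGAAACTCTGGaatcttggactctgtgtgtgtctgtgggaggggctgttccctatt
Gsta2: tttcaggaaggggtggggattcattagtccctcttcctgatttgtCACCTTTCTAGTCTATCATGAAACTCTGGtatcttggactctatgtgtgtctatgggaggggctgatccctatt
Over the 250 bases before the start, the pair was identical at 72.2% of aligned positions.

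Gsta4, which prefers 4-hydroxynonenal and related aldehydes of lipid peroxidation, was the most abundant alpha member. It was at 287, 334 and 232 TPM in WT, 467, 435 and 429 in EgfrKO, 85.2, 69.9 and 49.6 in Klf5KO, and 1253, 1192 and 1182 in Smad4KO. Each genotype occupied its own range. The log2 difference from WT was 0.66 (SE 0.17, adjusted p = 0.0081) in EgfrKO, -2.06 (SE 0.17, adjusted p = 1.6e-06) in Klf5KO and 2.10 (SE 0.17, adjusted p = 1.3e-06) in Smad4KO. Gsta4 transcripts share no 31-base word with another gene, so reads from a close copy do not enter its value.

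Gsta1 showed the same order of genotypes at lower levels. The libraries were at 29.9, 29.6 and 21 TPM in WT, 83.1, 89.0 and 81.0 in EgfrKO, 3.79, 3.69 and 0.89 in Klf5KO, and 333.3, 347 and 332.5 in Smad4KO, again with no overlap. The log2 differences were 1.63 (SE 0.28, adjusted p = 0.00084), -2.98 (SE 0.28, adjusted p = 5.2e-06) and 3.62 (SE 0.28, adjusted p = 1.1e-06), so the Smad4KO mean was 12.6 times the WT mean. Of the 31-base words in Gsta1 transcripts, 92.2% occur in another gene and 87.8% in Gm3776, a neighbouring gene model, so the split of reads between them is uncertain. Gm3776 differed from WT by 2.20, -1.77 and 4.04, and the sum of both averaged 42.0 TPM in WT, 156.6 in EgfrKO, 6.80 in Klf5KO and 598.9 in Smad4KO.

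Gsta3, which besides conjugation isomerises steroid precursors, has almost no shared sequence (2.09% of words). WT libraries were at 7.59, 7.37 and 3.93 TPM, EgfrKO at 8.67, 10.3 and 11, Klf5KO at 2.71, 2.40 and 0.86, and Smad4KO at 117.8, 106.1 and 113.1. The Smad4KO libraries stood far above the rest, with a log2 difference of 4 (SE 0.26, adjusted p = 2.4e-07) and a mean 17.8 times that of WT. Klf5KO was lower by a log2 difference of -1.31 (SE 0.26, adjusted p = 0.00082), and the EgfrKO difference of 0.63 did not pass (adjusted p = 0.066). Gsta2, chosen here after its values were seen because it completes the class, was at 0 to 0.21 TPM in WT and 7.02 to 8.56 TPM in Smad4KO. Of its 31-base words 58.8% occur in another gene and 43.7% in the gene model Gm10639, so its share of reads is uncertain. The sum of Gsta2 and Gm10639 averaged 0.15 TPM in WT and 9.83 in Smad4KO.

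**Figure D3:**
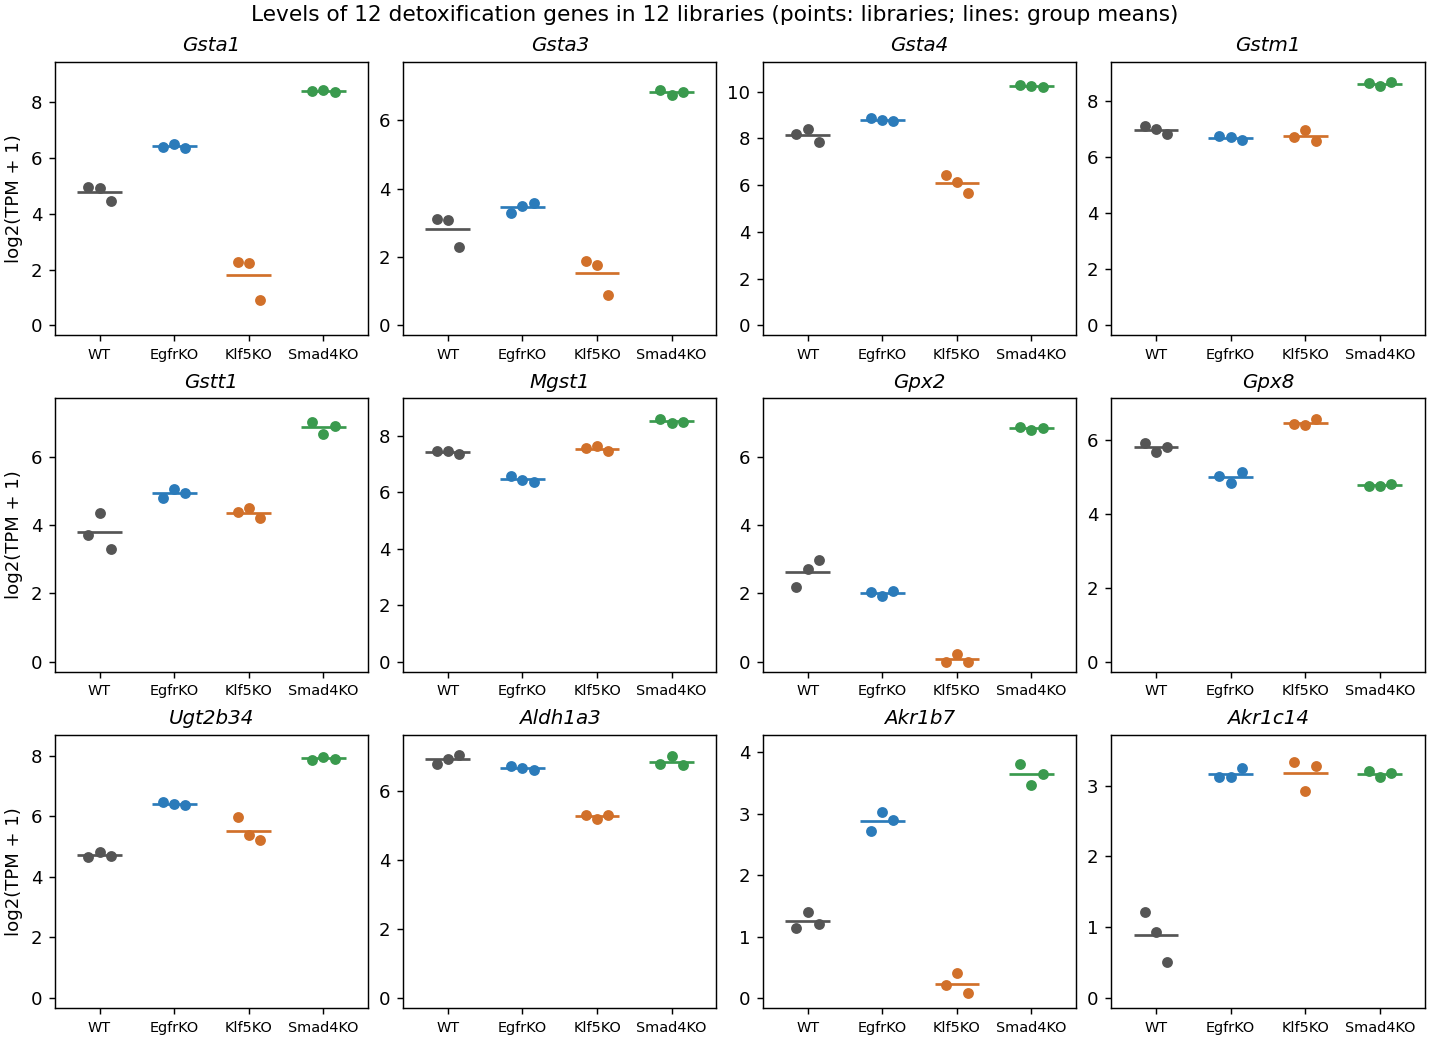
Levels of 12 members as log2(TPM + 1) in each of the 12 libraries, by genotype, with lines at the group means (n = 3). Gsta1, Gsta3, Gsta4 and Gpx2 are lowest in Klf5KO and highest in Smad4KO, Mgst1 is lowest in EgfrKO, Gpx8 is lowest in Smad4KO, and the Akr1c14 points of the 3 knockouts overlap with each other above WT.

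Promoter windows were searched on both strands over the 250 bases before the start for TGACNNNGC, the core of the antioxidant response element, and TGANTCA, the site of AP-1 factors. TGACNNNGC was present at 6 of 55 tested members with a window (10.9%), near the 11.5% of all 27025 genes, and TGANTCA at 7 of 55 (12.7%, against 7.82%). Gsta3, Gstm5, Gstm7, Mgst1, Aldh1a2 and Aldh9a1 held the first, and Gstm5, Gstp1, Gstp2, Mgst2, Ugt1a6a, Ugt2b35 and Aldh1a1 the second. The Ugt1a6a and Ugt2b35 matches read TGATTCA, which is not the AP-1 site, so the TGANTCA shares are not shares of AP-1 sites. A match is a description of letters, not of binding. The 4 windows below are shown as examples of each motif, with the match in capitals: Gsta3 at chr1:21240434-21240502 (plus strand, match 121 bases before the start), Mgst1 at chr6:138140441-138140509 (plus strand, match read on the opposite strand, 56 bases before), Gstp1 at chr19:4037950-4038016 (minus strand, 74 bases before) and Gstp2 at chr19:4042274-4042340 (minus strand, 89 bases before).
Gsta3: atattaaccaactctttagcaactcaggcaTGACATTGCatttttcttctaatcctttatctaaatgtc
Mgst1: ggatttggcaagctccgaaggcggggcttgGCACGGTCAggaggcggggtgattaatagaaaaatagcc
Gstp1: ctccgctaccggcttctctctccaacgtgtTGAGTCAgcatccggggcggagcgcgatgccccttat
Gstp2: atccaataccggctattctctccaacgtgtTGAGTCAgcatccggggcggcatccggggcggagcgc
The Gstp1 and Gstp2 windows were identical at 78.5% of aligned positions, and Gstp2 averaged 15.8 TPM in WT, 9.23 in Klf5KO (log2 difference -0.71, adjusted p = 0.011) and 24.2 in Smad4KO (0.60, adjusted p = 0.035).

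The mu class lies in 1 cluster on chromosome 3 (107895854 to 108045179), and its 6 tested members were all higher in Smad4KO (median log2 difference 1.05). In EgfrKO 1 was higher and 3 lower (31.3% and 12% of all genes), and in Klf5KO 3 were lower and none higher (11.1% and 55.2%). After scaling, 5 of the 6 were higher in Smad4KO. Gstm1, the main mu enzyme of many tissues, was at 138, 127 and 112 TPM in WT and 399, 373 and 408 in Smad4KO. Those groups were far apart, with a log2 difference of 1.64 (SE 0.09, adjusted p = 1e-07). EgfrKO libraries, at 106, 104 and 97.2 TPM, lay just below WT (log2 difference -0.29, adjusted p = 0.027), a call that was lost without WT replicate 1 (adjusted p = 0.104), WT replicate 2 (0.0686), EgfrKO replicate 2 (0.0564) or EgfrKO replicate 3 (0.0842). Klf5KO libraries, at 105, 123 and 95.5 TPM, overlapped with WT (adjusted p = 0.052). That comparison was called lower after median-of-ratios scaling (-0.58, adjusted p = 0.000551) and after quantile normalization (-0.41, adjusted p = 0.00321). Of the 31-base words in Gstm1 transcripts 30.4% occur in another gene and 23.8% in Gstm2-ps1, so some reads may be split between them.

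Gstm2, with 17.4% of its 31-base words in another gene, separated all 4 genotypes. WT was at 18.8, 17.4 and 15 TPM, EgfrKO at 32.4, 30.1 and 26.9, Klf5KO at 13.1, 11.7 and 7.90, and Smad4KO at 89.9, 82.5 and 91.8, with log2 differences of 0.77, -0.63 and 2.31 from WT (SE 0.15; adjusted p = 0.0016, 0.0027 and 2.4e-07). Gstm4 was lower in EgfrKO, at 1.87 to 2.54 TPM, and in Klf5KO, at 0.93 to 1.35, than in WT, at 3.90 to 5.01. Its log2 differences were -0.84, -1.42 and, in Smad4KO, 0.62 (SE 0.14; adjusted p = 0.00061, 6e-06 and 0.0031), so within 1 cluster neighbouring genes moved in opposite directions in EgfrKO.

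The theta class, which acts on small halogenated compounds, had 2 tested members, both higher in Smad4KO. Gstt1 was at 12, 19.4 and 8.95 TPM in WT and 129, 101 and 120.3 in Smad4KO, a log2 difference of 3.08 (SE 0.21, adjusted p = 3.4e-07) and 8.68 times the WT mean. EgfrKO libraries, at 26.8 to 32.4 TPM, were also above WT (1.15, adjusted p = 0.0011). Klf5KO libraries, at 17.5 to 21.6 TPM, overlapped with WT, and the call there (0.58, adjusted p = 0.026) was lost when any of WT replicates 1 and 3 (adjusted p = 0.0722 and 0.113) or Klf5KO replicates 1 and 2 (0.0635 and 0.079) was left out. Gstt3 was at 3.50 to 4.82 TPM in WT, 4.27 to 6.77 in EgfrKO, 1.61 to 3.03 in Klf5KO and 13.4 to 15.8 in Smad4KO. Its log2 difference was 1.60 (SE 0.18, adjusted p = 2.5e-05) in Smad4KO and -0.59 (SE 0.18, adjusted p = 0.014) in Klf5KO, where the call was lost without WT replicate 1 (adjusted p = 0.0527) or Klf5KO replicate 3 (0.0579).

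Gstp1, of the pi class, had the highest mean TPM of all members in WT, EgfrKO and Klf5KO, and was second to Gsta4 in Smad4KO. It was at 787, 752.5 and 664 TPM in WT, 723 to 730.1 in EgfrKO, 693 to 769 in Klf5KO and 995, 947 and 997 in Smad4KO. Only the Smad4KO libraries left the WT range, with a log2 difference of 0.42 (SE 0.06, adjusted p = 0.00017). Of its 31-base words 57.8% also occur in Gstp2, so reads may be split between them. Gstp3, a further pi member, rose from 5.94, 7.55 and 6.89 TPM in WT to 22.9, 18.5 and 24.6 in EgfrKO (log2 difference 1.56, adjusted p = 2.8e-06) and 28.3, 31.8 and 29.9 in Smad4KO (2, adjusted p = 1.6e-07). Klf5KO libraries, at 8.66 to 11.3 TPM, were above WT by 0.50 (adjusted p = 0.0035), which became 0.18 (adjusted p = 0.269) after scaling.

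Of the smaller classes, Gsto1, an omega enzyme that reduces dehydroascorbate, was at 546, 544 and 493 TPM in WT, 632, 644 and 607 in EgfrKO, 467, 532 and 467 in Klf5KO, and 839, 854 and 815 in Smad4KO. Smad4KO lay above all other libraries (log2 difference 0.66, SE 0.06, adjusted p = 2.9e-06), and the EgfrKO difference of 0.25 (adjusted p = 0.0052) became 0.10 (adjusted p = 0.257) after scaling. Gsto2 was lower in Klf5KO, at 0.74 to 2.16 against 3.09 to 4.48 TPM (-0.93, adjusted p = 0.0034), a call lost with a leukocyte marker covariate (-0.97, adjusted p = 0.0512) or a fibroblast one (-0.26, adjusted p = 0.777). Gstz1, the maleylacetoacetate isomerase of tyrosine breakdown, was at 17.4 to 22.8 TPM in WT, 29.4 to 34.5 in EgfrKO and 33.1 to 35.9 in Smad4KO (log2 differences 0.60 and 0.75; adjusted p = 0.00044 and 5.4e-05). Its Klf5KO difference of 0.28 (adjusted p = 0.023) turned to -0.07 after scaling and -0.06 after quantile normalization, and passed neither without WT replicate 3 (adjusted p = 0.099) nor without Klf5KO replicate 1 (0.0784). Gstk1, the mitochondrial kappa enzyme, was at 1.63 to 2.91 TPM in WT and 0.59 to 1.22 in EgfrKO (-0.80, adjusted p = 0.014, but 0.0566 without WT replicate 2).

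The microsomal enzymes are membrane proteins with transferase and peroxidase activity, and their 3 genes separated EgfrKO from Smad4KO. All 3 were higher in Smad4KO, and their summed TPM was 541 to 567 in WT, 609 to 670.5 in EgfrKO, 459 to 512 in Klf5KO and 1000 to 1045 in Smad4KO. Mgst1 was at 178, 175 and 163 TPM in WT, 93.6, 86.7 and 82.2 in EgfrKO, 191, 197 and 174 in Klf5KO, and 389, 350.0 and 359 in Smad4KO. EgfrKO was the lowest group and Smad4KO the highest, with log2 differences of -0.97 and 1.08 from WT (SE 0.06; adjusted p = 1.2e-06 and 1.4e-07), while Klf5KO overlapped with WT (0.12, adjusted p = 0.12). No 31-base word of Mgst1 is shared with another gene.

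Mgst3, at 229, 229 and 233 TPM in WT, went the other way in EgfrKO. It was at 379.9, 396 and 368 TPM there and 423, 431 and 467 TPM in Smad4KO, with log2 differences of 0.72 and 0.93 (SE 0.05; adjusted p = 1.5e-06 and 7.7e-08). The Klf5KO libraries, at 219, 212 and 199 TPM, were lower by -0.14 (adjusted p = 0.033), and that call was lost without any 1 of the 3 WT libraries (adjusted p = 0.0581, 0.0644 and 0.0845) or without Klf5KO replicate 3 (0.138). Mgst2, named after its values were seen to complete the family, was at 143 to 161 TPM in WT, 81.0 to 103 in Klf5KO (-0.73, adjusted p = 3.5e-05) and 212 to 234 in Smad4KO (0.57, adjusted p = 0.00031).

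Glutathione peroxidases split by member. Gpx2, the gastrointestinal epithelial selenoenzyme, was higher in Smad4KO and lower in both other knockouts, and on the log2(TPM + 1) scale its Smad4KO difference was the largest of the 63 tested members. WT libraries were at 3.58, 5.52 and 6.84 TPM, EgfrKO at 3.14, 2.81 and 3.21, Smad4KO at 115.3, 109.8 and 113.9, and the Klf5KO libraries were listed at 0, 0.16 and 0. No groups overlapped, and the log2 difference was 4.21 in Smad4KO (SE 0.16, adjusted p = 7.7e-09, mean 21.3 times that of WT), -2.55 in Klf5KO (SE 0.16, adjusted p = 3e-07) and -0.61 in EgfrKO (SE 0.16, adjusted p = 0.0099). The EgfrKO call was lost with a pseudocount of 0.1 (adjusted p = 0.0932). Gpx2-ps1 shares 28.5% of the Gpx2 words.

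The ubiquitous peroxidases moved little. Gpx1, the cytosolic enzyme, was at 476, 469 and 465 TPM in WT and 616, 606 and 637 in Smad4KO, a log2 difference of 0.40 (SE 0.04, adjusted p = 1.5e-05). Its EgfrKO difference of 0.14 (adjusted p = 0.022) turned to -0.01 after scaling, and the call was lost without WT replicate 2 (adjusted p = 0.0567) or 3 (0.0657) and without EgfrKO replicate 1 (0.0613) or 2 (0.0558). Gpx4, which reduces peroxides in membrane lipids and restrains ferroptosis, was at 379, 405.5 and 378 TPM in WT, 526, 533 and 513 in EgfrKO, 463, 504 and 433 in Klf5KO, and 455, 437 and 484.5 in Smad4KO. Every knockout library was above every WT library, with log2 differences of 0.43, 0.26 and 0.24 (SE 0.06; adjusted p = 0.00016, 0.002 and 0.0052). After scaling, the Klf5KO value turned to -0.09 and the Smad4KO value became 0.13 (adjusted p = 0.148), and a pseudogene, Gpx4-ps2, shares 55.2% of the Gpx4 words.

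Gpx3 and Gpx8 were higher in Klf5KO and lower in Smad4KO. Gpx8, a peroxidase of the endoplasmic reticulum, was at 59.6, 50.9 and 55.6 TPM in WT, 31.6, 28.0 and 34.6 in EgfrKO, 85.5, 84.8 and 94.8 in Klf5KO, and 26.3, 26.4 and 27.3 in Smad4KO. Its log2 differences were -0.80, 0.67 and -1.02 (SE 0.08; adjusted p = 1.8e-05, 2.8e-05 and 1.2e-06). Gpx3, the secreted form, was at 11.1, 11.4 and 6.60 TPM in WT, 12 in each EgfrKO library, 25.2, 16.9 and 20.3 in Klf5KO, and 4.11, 6.73 and 6.01 in Smad4KO. The log2 difference was 1.05 (SE 0.20, adjusted p = 0.00083) in Klf5KO and -0.68 (adjusted p = 0.016) in Smad4KO, the latter with overlapping groups and lost without WT replicate 1 (adjusted p = 0.0627), WT replicate 2 (0.0654) or Smad4KO replicate 1 (0.0708).

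Markers of fibroblasts moved with the Klf5KO differences. Of 12 tested fibroblast markers 11 were higher in Klf5KO, and the 13 listed summed to 62.9 to 151 TPM in WT, 136 to 147 in EgfrKO, 316 to 655 in Klf5KO and 57.5 to 84.5 in Smad4KO, with no marker at 0 in a group. After scaling 7 of the 12 were higher in Klf5KO. Leukocyte markers, 7 of 7 higher in Klf5KO and 1 of 7 after scaling, summed to 111 to 150.4, 175 to 183, 185 to 271 and 57.5 to 107 TPM in the same order, none at 0. With the fibroblast marker mean as a covariate, the Klf5KO log2 difference was -3.67 for Gsta1 (adjusted p = 0.00884), -2.68 for Gsta4 (0.00189), -2.21 for Gsta3 (0.0333), -1.71 for Gpx2 (0.00418), 0.29 for Ugt2b34 (0.57), 0.19 for Ugt1a6a (0.488), 0.10 for Ugt1a7c (0.634), -0.10 for Gpx3 (0.862) and 0.65 for Gpx8 (0.0649). The Gsta1, Gsta3, Gsta4 and Gpx2 differences kept their direction and call in that fit, and the Gpx3, Gpx8, Ugt2b34, Ugt1a6a and Ugt1a7c calls were lost. Other Klf5KO calls lost in that fit included Gstm2 (-1.05, adjusted p = 0.0745), Gstt1 (0.28, 0.749), Gstt3 (-1.08, 0.133), Gstp3 (0.68, 0.16), Gpx4 (0.37, 0.116) and Aldh1l1 (0.08, 0.836). In it 4 members were higher and 7 lower in Klf5KO, against 6.87% and 2.61% of all genes. Because the fibroblast marker sums of Klf5KO and WT did not overlap, this fit cannot separate fibroblast content from genotype. Calls were lost in it with larger differences (Gstm2 and Gstt3) as well as with smaller ones (Gstt1 and Ugt2b34). The part of these cells in the Klf5KO values was not tested.

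UDP-glucuronosyltransferases were low in WT and higher in Smad4KO throughout. The 7 tested members were all higher in Smad4KO, 6 were higher in EgfrKO and 4 in Klf5KO, and none was lower in any knockout. Of all genes, 32.2%, 31.3% and 55.2% were higher in Smad4KO, EgfrKO and Klf5KO. The Klf5KO share of Ugt members, 57.1%, was thus near that of all genes. The summed TPM of the family was 78.1 to 90.3 in WT, 196 to 209 in EgfrKO, 119.5 to 158 in Klf5KO and 413 to 419 in Smad4KO, so the 4 genotypes did not overlap. After scaling, 5 members were called higher in EgfrKO, 3 in Klf5KO and 7 in Smad4KO (18%, 24.6% and 25.1% of all genes), and none lower.

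Ugt2b34, of the UGT2 branch that glucuronidates steroids and bile acids, had the largest TPM of the family in Smad4KO, while Ugt1a7c had it in the other genotypes. Ugt2b34 was at 24.0, 27.2 and 24.6 TPM in WT, 87.2, 83.9 and 81.9 in EgfrKO, 61.4, 40.7 and 36.2 in Klf5KO, and 233, 247 and 238 in Smad4KO. Each genotype had its own range, with log2 differences of 1.70, 0.81 and 3.20 (SE 0.14; adjusted p = 5.1e-06, 0.00043 and 2.3e-08). Its neighbour Ugt2b35 was at 0.64 to 0.95 TPM in WT and 0.69 to 0.76 in Klf5KO, but at 3.63 to 3.82 in EgfrKO and 15.3 to 19.3 in Smad4KO. The EgfrKO and Smad4KO log2 differences were 1.44 and 3.37 (SE 0.11; adjusted p = 2.6e-06 and 4.7e-09). Both lie in a cluster of 10 Ugt2 genes on chromosome 5 (86889770 to 87490871), of which 4 were tested and 6 were not.

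The Ugt1a genes on chromosome 1 (88055411 to 88220002) are alternative first exons spliced to shared later exons, so they share most of their transcript. Of the 31-base words 96.8% in Ugt1a6a and 56.1% in Ugt1a7c occur in another gene, and the split between them is uncertain. Ugt1a7c was at 42.5, 42.2 and 35.8 TPM in WT, 89.8, 86.3 and 88.2 in EgfrKO, 65.6, 53.0 and 59.7 in Klf5KO, and 106, 99.3 and 99.0 in Smad4KO, with log2 differences of 1.12, 0.55 and 1.32 (SE 0.08; adjusted p = 1.9e-06, 0.00011 and 1.9e-07). Ugt1a6a, an enzyme for planar phenols, was at 14.3 to 15.8 TPM in WT and 41.2 to 42.1 in Smad4KO (1.41, adjusted p = 1.1e-07). In EgfrKO its difference of 0.25 (adjusted p = 0.029) became 0.10 (adjusted p = 0.197) after scaling and was lost without WT replicate 2 (adjusted p = 0.0636) or 3 (0.10), or without EgfrKO replicate 1 (0.118) or 2 (0.0826).

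**Figure D4:**
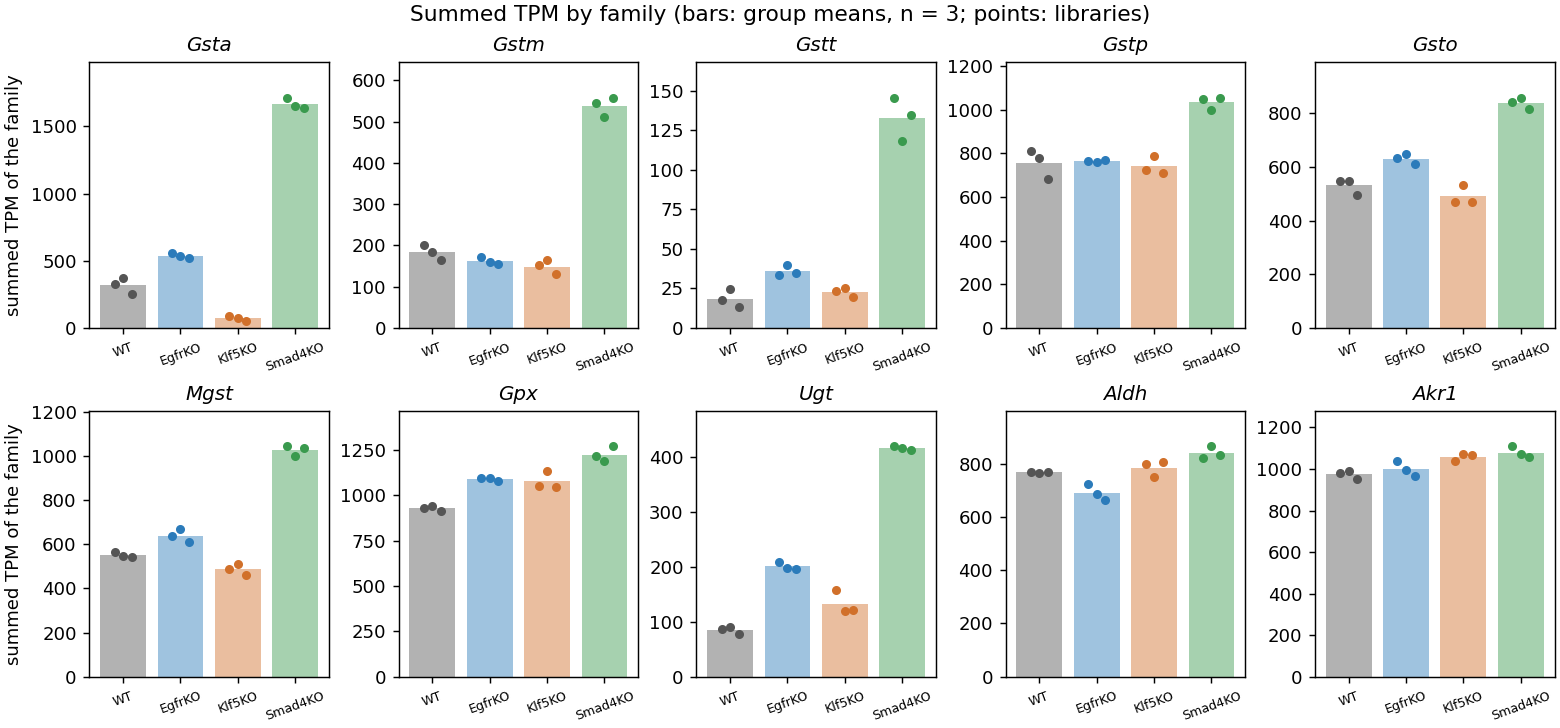
Summed TPM of each family or class in the 12 libraries (points), with bars for group means (n = 3). The Gsta, Gstm, Gstt, Mgst and Ugt panels have Smad4KO well above the other genotypes, the Gsta panel has Klf5KO at the bottom (51.3 to 91.7 TPM), and the Aldh panel has EgfrKO below WT and Smad4KO above it.

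Aldehyde dehydrogenases differed gene by gene. The summed TPM of the family was 764 to 770.1 TPM in WT, 662 to 725 in EgfrKO, 749 to 808 in Klf5KO and 821 to 865 in Smad4KO, so EgfrKO lay below and Smad4KO above WT without overlap. Of 17 tested members, 10 were higher and 2 lower in Smad4KO (32.2% and 17.4% of all genes), and 7 higher and 4 lower in EgfrKO (31.3% and 12%). In Klf5KO 7 were higher (41.2%, against 55.2% of all genes) and 3 lower (17.6%, against 11.1%). Scaling gave 2 higher (11.8%, against 24.6%) and 6 lower (35.3%, against 27.5%) in Klf5KO. Aldh2, the mitochondrial enzyme that clears acetaldehyde, was at 369.5, 351 and 363 TPM in WT, 286, 267 and 260.5 in EgfrKO, and 279, 280.1 and 290.5 in Smad4KO. Both knockouts lay below WT, by log2 differences of -0.41 and -0.35 (SE 0.05; adjusted p = 4.4e-05 and 8.4e-05). In Klf5KO, at 379, 389 and 411 TPM, the difference of 0.12 (adjusted p = 0.037) turned to -0.24 (adjusted p = 0.00709) after scaling, and its call was lost without WT replicate 2 (adjusted p = 0.124) or 3 (0.067) and without Klf5KO replicate 2 (0.0517) or 3 (0.147).

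Aldh1a3, which makes retinoic acid, was lower in Klf5KO. It was at 109, 119 and 129.7 TPM in WT, 38.8, 35.7 and 38.3 in Klf5KO, 105, 99.4 and 96.6 in EgfrKO, and 108, 129 and 107 in Smad4KO. The Klf5KO libraries stood alone below the others (log2 difference -1.64, SE 0.08, adjusted p = 6.1e-08), also with the fibroblast covariate (-1.63, adjusted p = 0.00114). The EgfrKO difference of -0.25 (adjusted p = 0.026) was lost without WT replicate 2 (adjusted p = 0.0593) or 3 (0.108), or without EgfrKO replicate 2 (0.0684) or 3 (0.0752). Aldh1l1, a folate enzyme, was lower in EgfrKO and Smad4KO, at 43.3 to 51.9 and 48.0 to 52.7 against 72.6 to 76.8 TPM (log2 differences -0.62 and -0.57; adjusted p = 0.00029 and 0.00031). In Klf5KO it was at 83.1 to 108 TPM, higher by 0.36 (adjusted p = 0.0049), a difference that was 0 after scaling.

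Aldh3a2, the fatty aldehyde dehydrogenase, was higher in every knockout, at 38.7 to 42.4 in EgfrKO, 43.2 to 49.9 in Klf5KO and 43.3 to 48.9 in Smad4KO against 24.5 to 25.5 TPM in WT. The log2 differences were 0.67, 0.84 and 0.84 (SE 0.07; adjusted p = 1.7e-05, 1.5e-06 and 1.3e-06). A pair of further members was chosen after their values were seen. Aldh3a1, an enzyme of aromatic and lipid aldehydes that neighbours Aldh3a2 on chromosome 11, was at 15.8 to 18.9 TPM in WT, 18.1 to 21.6 in EgfrKO, 6.60 to 8.92 in Klf5KO and 83.6 to 84.2 in Smad4KO, with log2 differences of -1.13 and 2.18 in the last 2 groups (SE 0.11; adjusted p = 4.8e-06 and 3.6e-08). Aldh1a1, a retinaldehyde dehydrogenase, was at 5.50 to 6.12 TPM in WT and 28.5 to 31.9 in Smad4KO (2.16, adjusted p = 1.8e-06).

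The Akr1 family held both the most even and some of the most changed members. Its summed TPM was 954 to 992 in WT, 969 to 1038 in EgfrKO, 1038 to 1074 in Klf5KO and 1056 to 1109 in Smad4KO, and most of it was Akr1a1, the general aldehyde reductase. Akr1a1 was at 691, 664 and 655 TPM in WT, 678, 639.8 and 646 in EgfrKO, 709, 691 and 713 in Klf5KO, and 641.5, 617 and 611 in Smad4KO. The differences were of the order of the spread: -0.03 and 0.07 did not pass (adjusted p = 0.52 and 0.13), and the Smad4KO call (-0.10, adjusted p = 0.047) was lost without any of the WT libraries (adjusted p = 0.158, 0.0837 and 0.0531) and without Smad4KO replicate 2 (0.108) or 3 (0.135). Akr1b8 was at 142 to 169 TPM in WT, 111 to 133 in Klf5KO (-0.37, adjusted p = 0.0023, but -0.03 and 0.933 with the fibroblast covariate) and 182 to 192 in Smad4KO, where 0.24 (adjusted p = 0.033) was lost without WT replicate 1 (adjusted p = 0.134) and Smad4KO replicates 1 (0.0783) or 2 (0.0847) and after scaling (adjusted p = 0.239).

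Akr1b7, a reductase of lipid aldehydes, followed the alpha transferases in its order of genotypes. It was at 1.21, 1.64 and 1.32 TPM in WT, 5.58, 7.12 and 6.49 in EgfrKO, 0.16, 0.32 and 0.06 in Klf5KO, and 13.1, 10.1 and 11.6 in Smad4KO. The groups did not overlap, and the log2 differences were 1.63, -1.02 and 2.40 (SE 0.13; adjusted p = 4.3e-06, 5e-05 and 9.5e-08). With the fibroblast covariate the Klf5KO value was -0.79 (adjusted p = 0.146).

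Akr1c14 and Akr1c19, from a cluster of Akr1c and Akr1e genes on chromosome 13 (4048991 to 4609164), were higher in each knockout. Akr1c14, a 3-alpha-hydroxysteroid dehydrogenase, was at 1.33, 0.91 and 0.43 TPM in WT, 7.72, 7.67 and 8.53 in EgfrKO, 9.07, 6.61 and 8.72 in Klf5KO, and 8.20, 7.66 and 8.06 in Smad4KO. The knockouts overlapped with each other and not with WT, with log2 differences of 2.28, 2.29 and 2.28 (SE 0.16; adjusted p = 1.7e-06, 7.1e-07 and 5.7e-07). Between knockouts the differences were -0.02 to 0.02 (SE 0.16, adjusted p = 0.94 to 1), which does not show that the levels are equal. Akr1c19 was at 8.60, 7.38 and 6.22 TPM in WT, 36.2, 33.4 and 28.4 in EgfrKO, 32.9, 25.3 and 23.5 in Klf5KO, and 83.3, 69.3 and 79.0 in Smad4KO (log2 differences 2.01, 1.74 and 3.23, SE 0.14; adjusted p = 1.5e-06, 1.7e-06 and 2e-08). Akr1c13, in the same cluster, was higher in Klf5KO, at 56.1 to 63.9 against 38.9 to 40.7 TPM (0.55, adjusted p = 3e-05), and its 0.20 after scaling had an adjusted p of 0.0532. In EgfrKO and Smad4KO its differences of -0.23 and -0.20 (adjusted p = 0.018 and 0.029) were lost without WT replicate 2 (adjusted p = 0.0576 and 0.0884). They were also lost without EgfrKO replicate 1 (adjusted p = 0.076), and without WT replicate 1 (0.0565), WT replicate 3 (0.0524) or Smad4KO replicate 3 (0.0995) respectively. Akr1c12 shares 39.2% of the Akr1c13 words.

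Direct comparisons between knockouts placed Smad4KO above both others in most members. Against Klf5KO, 42 members were higher in Smad4KO (18.3% of all genes were) and 6 were lower (45.5%), with a median log2 difference of Klf5KO from Smad4KO of -0.79 beside 0.21 over all genes. All 19 tested Gst members, the 3 Mgst and the 7 Ugt members were higher in Smad4KO. The largest differences of Klf5KO from Smad4KO were -6.76 for Gpx2 (SE 0.16, adjusted p = 9.2e-11) and -6.60 for Gsta1 (SE 0.28, adjusted p = 5.7e-09). In the other direction Gpx3 differed by 1.73 (SE 0.20, adjusted p = 1.8e-05) and Gpx8 by 1.69 (SE 0.08, adjusted p = 1.3e-08). After scaling 48 were higher in Smad4KO and 5 lower (31.2% and 29.1% of all genes). Without overlap of libraries, 41 were higher and 8 lower in Smad4KO (19.5% and 47.7%).

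Against EgfrKO, 38 members were higher in Smad4KO (14.5% of all genes) and 3 lower (18.7%), and after scaling 42 and 2 (19.6% and 16.5%). The libraries of the pair did not overlap for 43 members higher and 4 lower in Smad4KO (20.8% and 27.1%). The differences of EgfrKO from Smad4KO were -4.81 for Gpx2 (SE 0.16, adjusted p = 7.5e-09), -3.37 for Gsta3 (SE 0.26, adjusted p = 2.4e-06) and -2.05 for Mgst1 (SE 0.06, adjusted p = 7.5e-09). Gpx3, Gpx4 and Aldh1l2 were the 3 members higher in EgfrKO, by 0.99, 0.19 and 0.66 (adjusted p = 0.0032, 0.025 and 0.0076). Aldh1l2 was named after its values were seen.

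EgfrKO and Klf5KO differed in 29 members higher in EgfrKO (14.7% of all genes) and 12 lower (40.5%), and after scaling in 36 and 7 (26.4% and 25.3%). The 12 became 7 without EgfrKO replicate 3. Every EgfrKO library was above every Klf5KO library for 30 members and below for 13 (16.4% and 44.8% of all genes). None of the 19 Gst members was lower in EgfrKO than in Klf5KO and 14 were higher. Gsta1 differed by 4.61 (SE 0.28, adjusted p = 3.1e-07) and Gsta4 by 2.72 (SE 0.17, adjusted p = 3e-07), whereas Gpx8 differed by -1.47 (SE 0.08, adjusted p = 1.5e-07) and Mgst1 by -1.09 (SE 0.06, adjusted p = 2.4e-07).

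Genes that supply or accompany these enzymes were counted in the same fit, in which 31.3%, 55.2% and 32.2% of all genes were higher and 12%, 11.1% and 17.4% lower in EgfrKO, Klf5KO and Smad4KO. Of 17 tested genes of glutathione synthesis, recycling and breakdown, 12 were higher and 1 lower in EgfrKO, 10 higher and 3 lower in Klf5KO, and 11 higher and 3 lower in Smad4KO (median log2 difference 0.47, 0.29 and 0.56). After scaling these counts were 9 and 3, 6 and 7, and 11 and 3, with medians of 0.34, -0.05 and 0.45, so the Klf5KO balance depends on the scaling. Gclc, the catalytic subunit of the first step of glutathione synthesis, was at 71.9 to 79.7 TPM in WT, 140.3 to 154.5 in EgfrKO, 125 to 147 in Klf5KO and 192 to 202 in Smad4KO (log2 differences 0.96, 0.81 and 1.38; adjusted p = 1.3e-06, 1.8e-06 and 3.4e-08). Glrx, a glutathione-dependent reductase, was at 23.4 to 27.1 TPM in WT and 60.8 to 61.5 in Smad4KO (1.26, adjusted p = 3.6e-08). Ggt6, of the gamma-glutamyltransferases, was at 0.34 to 0.83 TPM in WT and 6.61 to 7.22 in Smad4KO (2.34, adjusted p = 1e-07).

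Nrf2 regulators and targets outside the families were split. Of 23 tested, 8 were higher and 5 lower in EgfrKO, 13 and 5 in Klf5KO, and 13 and 5 in Smad4KO, with medians of 0.15, 0.23 and 0.20, and after scaling 5 and 8, 4 and 11, and 11 and 5. Me1, the cytosolic NADPH source malic enzyme, was at 99.5 to 111 TPM in WT and 228 to 272 in Smad4KO (1.20, adjusted p = 9.6e-08), and Osgin1 at 27.2 to 32.1 and 67.8 to 72.3 TPM (1.17, adjusted p = 1.6e-06). Hmox1, the inducible haem oxygenase, was named after its values were seen because it went the other way. It was at 108.5, 162 and 118 TPM in WT, 80.1, 71.2 and 71.7 in EgfrKO, 50.5, 70.8 and 75.6 in Klf5KO, and 43.4, 33.9 and 43.8 in Smad4KO, lower by -0.77, -0.97 and -1.65 (SE 0.17; adjusted p = 0.0036, 0.00038 and 1e-05).

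Other phase I and II enzymes and xenobiotic receptors counted 13 higher and 2 lower of 19 in Smad4KO, 10 and 2 in EgfrKO, and 7 and 4 in Klf5KO (medians 0.70, 0.37 and 0.08), and after scaling 12 and 2, 9 and 4, and 6 and 5. Adh7, an alcohol and retinol dehydrogenase, was at 9.82, 11.6 and 6.24 TPM in WT, 25.6, 24.3 and 20 in EgfrKO, 3.95, 3.11 and 1.40 in Klf5KO, and 109.7, 112 and 103 in Smad4KO. The genotypes kept the order seen for Gsta1, with log2 differences of 1.28, -1.45 and 3.45 (SE 0.25; adjusted p = 0.0017, 0.00032 and 5.9e-07). Cyp2s1, an extrahepatic cytochrome P450, was at 26.9 to 32.5 TPM in WT and 87.2 to 94.3 in Smad4KO (1.63, adjusted p = 1e-07), while Cyp4b1 was higher in Klf5KO, at 64.5 to 69.2 against 28.5 to 31.8 TPM (1.13, adjusted p = 9e-07).

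Lists around retinoids, the aryl hydrocarbon receptor, glucuronic acid supply, export and selenoproteins gave mixed counts. Of 10 retinoid genes tested, 2 were higher and 3 lower in EgfrKO, 5 and 3 in Klf5KO, and 2 and 5 in Smad4KO, and after scaling 2 and 5, 2 and 5, and 1 and 6. Stra6, a receptor for retinol uptake, was at 19.4 to 20.9 TPM in WT, 42.4 to 44.1 in EgfrKO and 58.3 to 76.5 in Klf5KO (log2 differences 1.06 and 1.69; adjusted p = 9.3e-06 and 1.6e-07). Dhrs3, which returns retinaldehyde to retinol, was lower in every knockout, from 59.7 to 61.4 TPM in WT to 24.9 to 33.6 in Klf5KO (-1.07, adjusted p = 2.1e-06). Rdh10, which makes retinaldehyde from retinol, was lower in Smad4KO, at 35 to 43.1 against 77.3 to 99.2 TPM (-1.16, adjusted p = 1.8e-05). Of 5 aryl hydrocarbon receptor genes, 1 was higher and 2 lower in EgfrKO, 1 and 2 in Klf5KO, and 2 and 1 in Smad4KO, and after scaling 1 and 3, 1 and 4, and 2 and 1. Nqo1, a quinone reductase on both that list and the Nrf2 list, was at 4.14 to 5.21 TPM in WT, 2.77 to 3.48 in EgfrKO (-0.44, adjusted p = 0.014) and 13.6 to 15.4 in Smad4KO (1.48, adjusted p = 2e-06). Tiparp, a target that restrains the receptor, was at 23.8 to 39.4 TPM in WT and lower in every knockout, with -1.46 in Klf5KO (9.40 to 12.5 TPM, adjusted p = 9.8e-06). Cyp1b1 was at 1.19 to 1.28 TPM in WT and 3.08 to 5.46 in Klf5KO (1.24, adjusted p = 6.8e-05).

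Of 5 genes listed for UDP-glucuronate supply and use, 3 were higher and 1 lower in EgfrKO and in Klf5KO, and 1 and 1 in Smad4KO, where the Ugt genes were highest. After scaling the counts were 3 and 1, 3 and 2, and 1 and 3. Ugp2, which makes UDP-glucose, was at 28.7 to 30.7 TPM in WT and 35.9 to 42.1 in Smad4KO (0.40, adjusted p = 0.00034). Slc35b1, whose place on this list is uncertain, was higher in Klf5KO, at 103 to 113 against 57.0 to 63.8 TPM (0.81, adjusted p = 1.5e-06). Gusb, which cleaves glucuronides, was also higher there, at 64.1 to 65.3 against 42.6 to 46.9 TPM (0.54, adjusted p = 2.8e-05).

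Of 8 tested genes for export of conjugates or drugs, 3 were higher and 2 lower in EgfrKO, 4 and 1 in Klf5KO, and 3 and 3 in Smad4KO, and after scaling 2 and 3, 3 and 3, and 3 and 4. Abcc3, which exports glucuronides and glutathione conjugates, was at 13.3 to 14.7 TPM in WT and 35.5 to 43.9 in Smad4KO (1.38, adjusted p = 2.3e-06). Abcc4, a related exporter, was at 18.9 to 20.7 and 37.7 to 45.8 TPM (1.02, adjusted p = 1.8e-06). Abcb1a, the multidrug transporter P-glycoprotein, was lower in Smad4KO, at 16.6 to 20.1 against 49.2 to 60.4 TPM (-1.55, adjusted p = 1.5e-07), and in EgfrKO (-1.02, adjusted p = 9.2e-06). Abcb1a is a drug exporter more than a conjugate exporter, and it is among the lower calls counted above. A list of 11 genes joined selenoprotein synthesis, on which Gpx1, Gpx2, Gpx3 and Gpx4 depend, with the selenoproteins Selenop, Selenow, Txnrd1 and Txnrd2. Of these 11, 3 were higher and none lower in EgfrKO, 7 and none in Klf5KO, and 7 and 1 in Smad4KO. After scaling the counts were 3 and none, 5 and 3, and 5 and 1. Sephs2, which makes the selenium donor, was at 19.1 to 22.2 TPM in WT, 29.0 to 31.4 in EgfrKO, 32.2 to 39.7 in Klf5KO and 38.7 to 39.1 in Smad4KO (log2 differences 0.52, 0.73 and 0.87; adjusted p = 0.00034, 1.2e-05 and 3.6e-06). Selenop, the selenium carrier, was at 403 to 505 TPM in WT and 809 to 909.9 in Smad4KO (0.98, adjusted p = 2.5e-06), and Txnrd1, a thioredoxin reductase, was higher in Klf5KO, at 86.8 to 101 against 61.1 to 64.3 TPM (0.57, adjusted p = 2.7e-05).

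Hepatocyte markers were examined because several of these enzymes are best known from liver. The 5 listed summed to 14.2 to 19.8 TPM in WT, 52.4 to 61.0 in EgfrKO, 27.3 to 38.5 in Klf5KO and 105 to 128 in Smad4KO, none at 0 in a group, and 1 of 4 tested was higher in Smad4KO. Most of the sum was Ttr (transthyretin), at 99.7 to 121.6 TPM in Smad4KO, whereas Alb (albumin) did not exceed 4.58 TPM in any library, and their part in the Smad4KO values was not tested. Macrophage markers summed to 442 to 795 TPM in WT, 843 to 911 in EgfrKO, 580 to 931 in Klf5KO and 116 to 543 in Smad4KO. Their low value came from Smad4KO replicate 2, where the complement gene C1qa was at 29.9 TPM against 149 and 162 in the other Smad4KO libraries. When any 1 library was left out, 42 to 46 members were called higher in Smad4KO.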

How the data were processed

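The deposited values are TPM, in 1 table with gene symbols as rows and the 12 libraries as columns. Salmon and mm10 are the tool and build listed in the submitters' processing notes, while versions and the transcript annotation are not given there. Per the labels' protocols, RNA came from a Qiagen RNeasy micro kit and Novogene did the later steps. Columns were matched to samples by name.

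Values were tested as log2(TPM + 1) with limma 3.58.1 in R 4.3.3 (4 group means, a trend in the spread, 13662 genes with 1 TPM or more in at least 3 libraries, Benjamini-Hochberg over all of them within each of 6 contrasts, two-sided, threshold 0.05). On simulated data the fit recovered 91% of genes changed by 1 on the log2 scale and 57.1% of those changed by 0.5 in the Smad4KO contrast. There were 5 false calls among the unchanged of 13662 genes. For a change of 1 it recovered 87.2% in the EgfrKO and 87.3% in the Klf5KO contrast. Far fewer genes were changed in the simulation than were called in these data, so its rates need not carry over. Sequences and positions came from RefSeq tables of GRCm38.p6 (the mm10 assembly), where all 92 symbols matched. Shared 31-base words were counted over GENCODE M21 transcripts, which may differ from the authors' annotation.

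Members and lists were chosen with earlier results of these data known. Named genes were the 2 most abundant members of each family or class, the 5 largest non-overlapping changes in each direction against WT and the 2 largest between knockouts (mean of 2 TPM or more in 1 group), the 3 targeted genes and up to 3 genes of each other list with the smallest adjusted p. Marker lists not described in the text gave, higher and lower in EgfrKO, Klf5KO and Smad4KO: neutrophils 1 and 2, 1 and 2, 1 and 0 of 5 tested; T and NK cells 6 and 0, 6 and 0, 4 and 0 of 8; endothelial cells 2 and 0, 2 and 0, 0 and 0 of 2. Alternatives covered the pseudocount, filter, scaling, trend, samples fitted, replicate block, marker covariates and leaving out each library.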

Additional observations from a re-analysis of the deposited data

How the results depend on the processing

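In Klf5KO, the 24 higher members became 9 after median-of-ratios scaling, 12 after quantile normalization, 15 with a leukocyte covariate and 4 with a fibroblast covariate, and the 18 lower became 28, 11 and 7 after that scaling and with the leukocyte and fibroblast covariates. With the fibroblast covariate the 6 lower in Smad4KO became 3, the 12 lower in EgfrKO than in Klf5KO became 6, and the 6 higher in Klf5KO than in Smad4KO became 3; the 12 became 7 after median-of-ratios scaling. The 3 members higher in EgfrKO than in Smad4KO became 0 in limma with either covariate, where 2 (leukocyte) and 1 (fibroblast) had an unadjusted p under 0.05. With the fibroblast covariate 6.87% of all genes were higher and 2.61% lower in Klf5KO. Leaving out 1 library gave 22 to 28 higher and 9 to 13 lower in EgfrKO, 18 to 25 and 14 to 19 in Klf5KO, and 42 to 46 and 3 to 6 in Smad4KO. It gave 23 to 27 higher and 7 to 12 lower in EgfrKO against Klf5KO, 2 to 3 and 35 to 38 in EgfrKO against Smad4KO, and 6 to 7 and 41 to 42 in Klf5KO against Smad4KO. Of 105 results for named members, 87 were called and 56 of these kept their call and direction under every alternative run. Called differences whose direction reversed were Gpx1 in EgfrKO (-0.01, median-of-ratios), and in Klf5KO Aldh2 (-0.24) and Gpx4 (-0.09, both median-of-ratios), Gstz1 (-0.07 with median-of-ratios, -0.06 with quantile normalization, -0.02 with the fibroblast covariate) and Gpx3 (-0.10, fibroblast covariate). Differences that had not passed also changed sign: in Klf5KO Mgst1 (-0.24), Akr1a1 (-0.29) and Gpx1 (-0.27) were called lower after median-of-ratios scaling, and Mgst1 (-0.03, quantile normalization), Akr1a1 (-0.02) and Ugt2b35 (0, both fibroblast covariate) and in EgfrKO Akr1b8 (0.04, fibroblast covariate) were not called. Leaving out 1 library gave -0.12 to 0.02 for Akr1b8 and -0.08 to 0.04 for Gstp1 in EgfrKO, -0.10 to 0.03 for Gstp1 and -0.08 to 0.05 for Ugt2b35 in Klf5KO, and -0.15 to 0 for Aldh1a3 in Smad4KO. The cause of these reversals was not tested. Deviations of same-numbered replicates were weakly correlated (-0.149 to 0.116, 1 of 18 pairs over 0.1). No pairing by number was seen, but these correlations cannot exclude one. With a replicate block the counts were 28 and 13 in EgfrKO, 23 and 19 in Klf5KO, 46 and 7 in Smad4KO, 29 and 11, 4 and 38, and 7 and 42 in the contrasts between knockouts, and 5 named calls changed. Depth is unknown, so the counting error of low members such as Gsta2 and of Gpx2 in Klf5KO cannot be estimated.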
